A study of Mus musculus with 13 samples.

Results

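The ADAM genes encode membrane proteases that were followed here in the glomeruli of mice with antibody-induced membranous nephropathy (MN), an autoimmune disease of the kidney filter. The set consists of 10 genes, chosen by name from the 35967 genes of the expression table: Adam8, Adam9, Adam10, Adam11, Adam12, Adam15, Adam17, Adam19, Adam22 and Adam23. Wildtype BALB/c mice, males by the study's methods, received 2 mg of rabbit IgG by intraperitoneal injection. Those methods also give an age for mice of the MN model, and the labels give none. Control mice (n = 5) received preimmune IgG and were killed at day 1 or day 5 in a single group, without a label for the day of each mouse. MN mice received IgG against THSD7A, a podocyte membrane protein, and were killed at day 1 (n = 4) or day 5 (n = 4). The model is a passive transfer of rabbit antibody, without an autoimmune response of the mouse's own. Glomeruli were isolated with magnetic beads, and the study's methods describe collagenase digestion, naming mechanical isolation for co-immunoprecipitation. RNA of the isolated glomeruli was sequenced with 1 library per mouse, and the values are TPM, a share of the transcripts of a library that is corrected for transcript length and so allows levels of different genes to be compared. Libraries of a group are treated as separate animals on the strength of their titles.

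ADAM proteins (a disintegrin and metalloproteinase) sit in the plasma membrane and cut the extracellular part off other membrane proteins, a step called ectodomain shedding. Most are made as inactive precursors, lose their prodomain to furin-type convertases, and use a zinc ion held by histidines in the catalytic site. ADAM10 and ADAM17 are the best known sheddases, acting on Notch receptors, cadherins, cytokine precursors and ligands of the EGF receptor. ADAM11, ADAM22 and ADAM23 lack the catalytic site and serve as receptors for LGI proteins, known mainly from the nervous system.

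The coding sequences show this division of the set. The stretches below span the zinc-binding site in the canonical GENCODE transcript of each gene on the GRCm39 assembly, 33 bases or 11 codons long, read 5′ to 3′ on the coding strand. They are shown because they separate the proteases from the members that cannot cut. Capitals mark the 3 codon positions that hold the zinc-binding histidines in the catalytic members. The pattern occurred exactly once in the translated sequence of 7 members.
Adam10: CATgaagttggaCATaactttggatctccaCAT
Adam17: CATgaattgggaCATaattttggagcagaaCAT
Adam9: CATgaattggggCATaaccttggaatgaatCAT
Adam12: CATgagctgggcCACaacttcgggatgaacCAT
Adam15: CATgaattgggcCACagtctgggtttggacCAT
Adam19: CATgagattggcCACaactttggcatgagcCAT
Adam8: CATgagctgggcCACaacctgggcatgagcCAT
The other 3 members had no such pattern, and their stretch was taken from a protein alignment to the catalytic member with the best score among those that aligned without a gap.
Adam11: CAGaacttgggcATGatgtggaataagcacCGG
Adam22: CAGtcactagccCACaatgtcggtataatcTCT
Adam23: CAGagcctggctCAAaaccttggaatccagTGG
Of the 3 capital positions, Adam11 and Adam23 had 0 histidine codons and Adam22 had 1. In Adam10 (chr9:70586221-70687511, plus strand) the stretch crossed the border of exons 9 and 10, at chr9:70661578-70668867. In Adam12 (chr7:133484928-133833875, minus strand) it lay in exon 11, at chr7:133562887-133562919. The stretch of Adam15 (chr3:89245846-89257511, minus strand) was also in exon 11, at chr3:89252087-89252119. That of Adam17 (chr12:21373510-21423672, minus strand) was at chr12:21386733-21386765, again in exon 11. The deposited values are 1 per gene, so isoforms with and without these exons were not told apart.

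All 10 genes passed the filter on low values, which kept 14322 genes that reached a TPM of 1 in 4 or more libraries, and these were tested together with limma and Benjamini-Hochberg adjustment. The libraries correlated closely over the 14322 tested genes, with Spearman correlations between libraries of 0.971 to 0.988. The scaling factors were 0.955 to 1.04. Read depth is unknown from TPM, so no counting interval is given. Podocyte markers were abundant in every group, with summed TPM of 7580 to 10200 in controls, 8380 to 10300 at day 1 and 9140 to 9820 at day 5, where 1 of 8 rose (Cdkn1c, log2 fold change 0.72) and 1 fell (Synpo, -0.46). Control replicate 2 had the lowest podocyte sum of all libraries (7578) and control replicate 5 the highest proximal tubule sum (570). Tubule markers stood higher at day 1: the sum of the 5 markers of distal segments was 255 to 515 TPM in controls, 493 to 896 at day 1 and 345 to 477 at day 5. Against control, 0 of 5 distal and 0 of 6 proximal tubule markers passed at day 1 in limma (3 and 5 at an unadjusted p under 0.05).

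In control glomeruli the ADAM genes covered a wide range of levels. Adam15 was highest at 131 ± 16.5 TPM (SD, n = 5), followed by Adam9 at 105.5 ± 9.96, Adam10 at 70.5 ± 2.73 and Adam17 at 51.0 ± 2.39. These 4 genes made up 90.0% ± 1.19 of the summed TPM of the set. Adam15 exceeded 90.3% of the tested genes in its control mean and Adam17 exceeded 72.5%. Adam22 (16.3 ± 3.77) and Adam12 (9.87 ± 1.41) were lower, and Adam23 (5.2 ± 1.36), Adam19 (4.22 ± 0.584), Adam11 (3.10 ± 0.442) and Adam8 (1.26 ± 0.483) were lowest. Each of the top 4 was above the next gene in all 5 control libraries, although the ranges of Adam15 and Adam9 overlapped. The ranges of Adam19 and Adam11 overlapped as well, with Adam19 higher in 5 of 5 control libraries. Adam23 and Adam19 also overlapped, and Adam23 was the higher in 4 of 5, so the order of this pair was not resolved in controls. The order of the top 4 was the same in all 4 libraries at day 1 and in all 4 at day 5. Adam12 moved past Adam22 in the order of day 5 means, but their ranges overlapped there and Adam12 was the higher in 3 of 4 libraries.

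**Figure D1:**
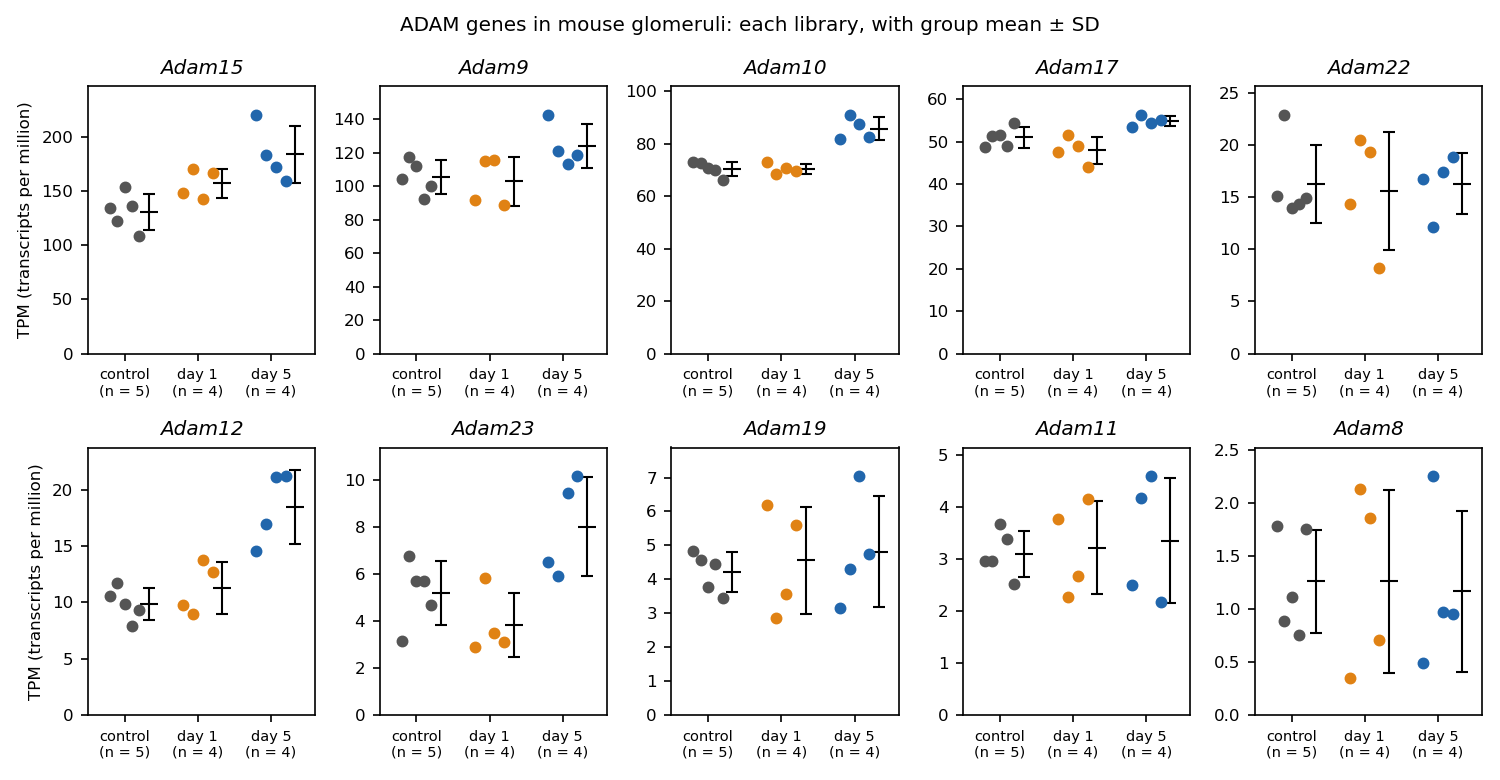
TPM of the 10 ADAM genes in each control, day 1 MN and day 5 MN library (points), with the mean ± SD of the group beside them; each panel has its own axis from 0. The day 5 points lie above all control points for Adam10, Adam12 and Adam15, and the groups overlap for Adam8, Adam11, Adam19 and Adam22.

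At day 1 of MN no ADAM gene passed the test against control IgG (0 of 10 at an adjusted p under 0.05), where 0.133% of all tested genes passed and 0.0908% also had an absolute log2 fold change above 0.5. At an unadjusted p under 0.05 there was 1, Adam15. The day 1 and control ranges overlapped for all 10 members, and they were fully separate for 4.22% of all tested genes. The median log2 fold change of the 10 genes was 0.03, beside 0.00 for all genes. At day 5, 3 of the 10 genes passed, Adam10, Adam12 and Adam15, and all 3 were higher. The background was 6.12% of tested genes passing in either direction and 4.13% passing as higher. Adam12 and Adam15 also exceeded the fold threshold, as 3.21% of tested genes did. The median log2 fold change of the 10 genes at day 5 was 0.21, and 9 of 10 were above 0, beside a median of 0.00 and 49.3% above 0 among all tested genes. Members were chosen with earlier results of these data known, so these values are a description. The signs of Adam11, Adam19 and Adam22 changed in some fits without 1 library. Bulk RNA cannot tell fewer or more cells of a type from less or more RNA per cell. Fold changes are on the scale of log2(scaled TPM + 0.5), which understates the change of the lowest genes.

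**Figure D2:**
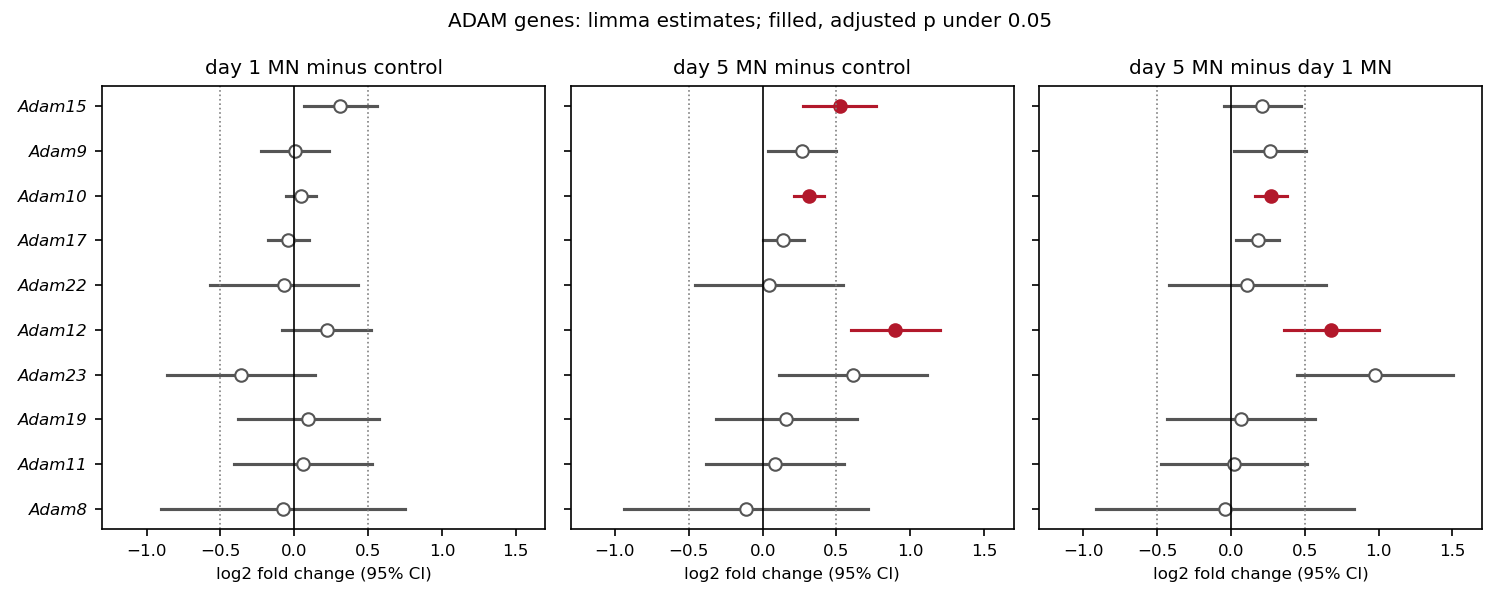
Log2 fold change of each ADAM gene (point) with its 95% confidence interval (line) from the limma fit, for day 1 MN minus control, day 5 MN minus control and day 5 MN minus day 1 MN; filled points passed an adjusted p of 0.05 and dotted lines mark a log2 fold change of 0.5. At day 5 Adam12 (0.90), Adam15 (0.52) and Adam10 (0.32) are filled, and none is filled at day 1.

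Adam10 encodes the constitutive sheddase of Notch and N-cadherin. Its TPM was 73.0, 72.7, 70.7, 69.97 and 66.2 in the 5 control libraries. It was 73.0, 68.4, 70.9 and 69.8 at day 1 and 82.0, 91.1, 87.6 and 82.5 at day 5. The day 1 libraries fell among the controls, and all 4 day 5 libraries were above every other library. The day 5 level was 1.24-fold that of controls (log2 0.32, SE 0.05, limma, adjusted p = 0.00128). The day 1 difference was 0.05 on the log2 scale, with a 95% interval of -0.06 to 0.15. Day 5 also exceeded day 1, by 0.27 (SE 0.05, limma, adjusted p = 0.0103). The change of Adam10 was small, and its SE in the fit was the lowest of the 10 genes. Its day 5 difference passed in all 13 fits that left out 1 library and in all 11 other settings, and in none of them did it reach the fold threshold of 0.5.

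Adam17 encodes the sheddase of TNF, also called TACE. Control libraries held 48.7, 51.3, 51.7, 48.9 and 54.5 TPM, day 1 libraries 47.7, 51.6, 48.9 and 43.9, and day 5 libraries 53.5, 56.4, 54.5 and 55.2. The day 5 libraries were all above those of day 1 but overlapped with the highest control. Neither difference passed the test after adjustment. The day 5 log2 fold change against control was 0.14 (95% interval 0.0035 to 0.28, limma, unadjusted p = 0.0451, adjusted p = 0.237). Against day 1 it was 0.18 (0.04 to 0.33, limma, unadjusted p = 0.0175, adjusted p = 0.2). The interval against control leaves room for a change up to 1.21-fold. Within a library, where no scaling between libraries enters, the ratio of Adam10 to Adam17 was 1.39 ± 0.107 in controls, 1.47 ± 0.114 at day 1 and 1.56 ± 0.0594 at day 5, with a control maximum of 1.5 and a day 5 minimum of 1.49. This ratio is given as a description.

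Adam12 encodes meltrin alpha, a protease of developing and regenerating mesenchymal tissue that sheds HB-EGF. Its TPM was 10.5, 11.7, 9.89, 7.89 and 9.35 in controls and 9.74, 8.98, 13.7 and 12.7 at day 1. At day 5 it was 14.6, 16.97, 21.1 and 21.2. Each day 5 value exceeded every control and every day 1 value, while day 1 libraries 3 and 4 were above the control range and libraries 1 and 2 within it. The day 5 level was 1.87-fold that of controls (log2 0.90, SE 0.14, 95% interval 0.60 to 1.20; limma, adjusted p = 0.00166), the largest fold change of the 3 genes that passed. Against day 1 the difference was 0.68 (SE 0.15, limma, adjusted p = 0.0289), and the day 1 value itself was 0.22 above control (-0.08 to 0.52; adjusted p = 0.545). The day 5 difference from control was called in all 13 fits without 1 library. The difference between the days passed in 8 of those 13 and failed without day 1 replicate 1 (adjusted p = 0.0847) or 2 (0.0817), or without day 5 replicate 2 (0.0723), 3 (0.0905) or 4 (0.0927).

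Markers of dividing cells were higher in the day 5 group, as were Adam10, Adam12 and Adam15. The 5 markers (Mki67, Top2a, Cdk1, Ccnb1 and Ccna2) had a summed TPM of 12.6 to 24.1 in controls, 9.24 to 21.9 at day 1 and 88.7 to 137 at day 5, and 5 of 5 were higher at day 5. The tested genes with a pattern most like Adam12 over the 13 libraries were Rad54b (Pearson r of scaled log2 TPM 0.92), Prim1 (0.918) and Brca1 (0.913), which act in DNA repair or replication. The step from controls to day 5, which the 13 libraries share, enters each r. The part of dividing cells in these results was not tested. Of the mesangial markers, 1 of 5 passed at day 5 (Serpine2, log2 fold change 0.42), and the mesangial sum was 1450 to 2090 TPM in controls and 1920 to 2120 at day 5. Of the 2 parietal epithelial markers, 1 rose at day 5 (Cldn1, log2 fold change 1.08, limma, adjusted p = 0.0036), and their sum was 10.9 to 14.2 TPM in controls, 14.8 to 18.6 at day 1 and 17.4 to 22 at day 5. Its part in the day 5 results was not tested.

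Adam15 encodes metargidin, a sheddase with an integrin-binding domain. It was the most abundant member in every library. Control libraries held 134, 122, 153, 136 and 109 TPM. Day 1 libraries held 148, 171, 143 and 167, and day 5 libraries held 221, 184, 173 and 159. The lowest day 5 library was just above the highest control, at 159 against 153 TPM, and day 1 and day 5 overlapped. The day 5 level was 1.44-fold that of controls (log2 0.52, SE 0.11, 95% interval 0.28 to 0.77; limma, adjusted p = 0.0152). At day 1 it was 1.24-fold (log2 0.31, 0.06 to 0.56), which did not pass (limma, adjusted p = 0.312), and the step from day 1 to day 5 was 0.21 (-0.05 to 0.47, limma, adjusted p = 0.436). The log2 fold change at day 5 lay close to the threshold of 0.5 and the call depended on single libraries. Without day 5 replicate 2 the adjusted p was 0.0529, and without control replicate 2, control replicate 5 or day 5 replicate 1 the log2 fold change dropped under 0.5 to 0.49, 0.47 and 0.41. Without control replicates 2 and 5 together it was 0.41 (adjusted p = 0.0979). Adam15 stayed above control in every one of these fits.

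The genes that followed Adam15 most closely over the 13 libraries were Cavin1, a coat protein of caveolae (r = 0.944), Cfl1, the actin-severing protein cofilin (0.934), and Gm49909 (0.934). For Adam10 they were Bok (0.974), Col5a3 (0.972) and Cdkn2a (0.971), a BCL2 family gene, a collagen chain and a cell cycle inhibitor. These 13 libraries share the step from controls to day 5, which enters each r. Among the members themselves, Adam10 had an r of 0.809 with Adam12 and 0.716 with Adam15, and Adam9 had 0.73 with Adam17. Endothelial markers summed to 4520 to 5670 TPM in controls and 5300 to 5640 at day 5, and 1 of 6 passed (Emcn, log2 fold change 0.29). Their part in the Adam15 values was not tested.

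Adam9, the second most abundant member, encodes meltrin gamma, a widely expressed protease. It measured 104.5, 118, 112, 92.3 and 100 TPM in controls, 91.6, 115, 116 and 88.8 at day 1, and 143, 121, 113 and 119 at day 5. Day 5 replicate 1 was the highest and replicate 3 fell among the controls. The day 5 log2 fold change of 0.27 (95% interval 0.04 to 0.50) did not pass (limma, adjusted p = 0.179). In the same library, day 5 replicate 1, Adam15 was also at its maximum, and the ratio of Adam15 to Adam9 was 1.25 ± 0.184 in controls, 1.55 ± 0.269 at day 1 and 1.48 ± 0.0933 at day 5.

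Adam19 and Adam8 were the catalytic members with low transcript levels. Adam19, meltrin beta, which processes neuregulins and acts in heart development, ranged from 3.44 to 4.85 TPM in controls, 2.87 to 6.18 at day 1 and 3.14 to 7.04 at day 5. The groups overlapped, and the day 5 log2 fold change of 0.16 had an interval of -0.32 to 0.64. Adam8, a protease of leukocytes, ranged from 0.759 to 1.78 TPM in controls, 0.353 to 2.13 at day 1 and 0.494 to 2.26 at day 5, with a day 5 log2 fold change of -0.11 (-0.94 to 0.71). Both intervals were wide, so these libraries hold little information on the pair. Of the 9 macrophage markers tested, 0 passed at either day against control in limma. At an unadjusted p under 0.05 there were 0 at day 1 and 3 at day 5 (C1qb, C1qc and Ptprc, all higher). Macrophage markers summed to 47.0 to 72.7 TPM in controls, 57.2 to 81.5 at day 1 and 56.6 to 72.6 at day 5. Of the 3 neutrophil markers tested, 0 passed at either day (1 at day 1 and 0 at day 5 at an unadjusted p under 0.05). Neutrophil markers summed to 7.33 to 20.1 TPM in controls, 12.7 to 30 at day 1 and 5.6 to 25 at day 5. The part of leukocytes in the Adam8 values was not tested. The ratio of Adam12 to Adam19, both meltrins, was 2.37 ± 0.391 in controls, 2.70 ± 0.990 at day 1 and 4.01 ± 0.738 at day 5.

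Of the members without a catalytic site, Adam23 varied most between the groups. Its TPM was 3.15, 6.77, 5.70, 5.69 and 4.69 in controls, 2.90, 5.84, 3.50 and 3.10 at day 1, and 6.51, 5.91, 9.43 and 10.2 at day 5. The day 1 mean was the lowest and the day 5 mean the highest, and day 1 replicate 2, at 5.84, was close under the lowest day 5 library. The difference between day 5 and day 1 was 0.97 on the log2 scale (95% interval 0.45 to 1.5), larger than that of Adam12, and missed the threshold (limma, adjusted p = 0.0554). Against control, Adam23 was at -0.36 at day 1 (adjusted p = 0.543) and 0.61 at day 5 (adjusted p = 0.153) in the limma fit. Leaving out control replicate 1 (adjusted p = 0.0367) or day 1 replicate 2 (adjusted p = 0.0196) brought the difference between the days past the threshold. Only these 2 of the 13 fits without 1 library passed. The limma adjusted p rose to 0.161 without day 1 replicate 4.

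Adam22 ranged from 13.9 to 22.9 TPM in controls, 8.19 to 20.5 at day 1 and 12.1 to 18.9 at day 5, and its day 5 log2 fold change was 0.04 (-0.46 to 0.55). Adam11 ranged from 2.52 to 3.68, 2.27 to 4.16 and 2.16 to 4.59 TPM, with a day 5 value of 0.08 (-0.39 to 0.55). Both genes overlapped between all groups. The LGI genes, whose proteins bind these receptors, were low: none of the 4 passed the filter, and the highest single value was 2.00 TPM, for Lgi4.

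Between the 2 MN time points, 2 of the 10 genes passed, Adam10 and Adam12, both higher at day 5, where 2.38% of tested genes passed in either direction. Of the distal segment markers, 2 of 5 fell between the same groups (Calb1 by 1.39 and Aqp2 by 1.30 on the log2 scale), and the part of tubule RNA in these results was not tested. Adam12 alone also exceeded the fold threshold, as did 1.81% of tested genes. The day 5 libraries lay outside the day 1 range for 4 members (Adam10, Adam12, Adam17 and Adam23, all higher), beside 11% of tested genes in either direction. Against control, 3 members lay outside the range at day 5, beside 10.8% of tested genes in either direction and 5.07% as higher. The summed TPM of the 10 genes was 398 ± 23.6 in controls, 418 ± 23.0 at day 1 and 501 ± 29.9 at day 5, and the lowest day 5 sum (474) was above the highest control sum (426). Most of this sum is Adam15, Adam9 and Adam10. Within the set, the shares of 3 members are given. Adam15 held 32.9% ± 3.07 of the sum in controls, 37.6% ± 3.11 at day 1 and 36.6% ± 2.99 at day 5. Adam12 held 2.48% ± 0.298, 2.71% ± 0.59 and 3.72% ± 0.839 in the same order. For Adam17 the shares were 12.9% ± 1.14, 11.5% ± 0.451 and 11% ± 0.788. The Adam17 share was 12.1% to 14.9% in controls, 10.89% to 11.98% at day 1 and 9.86% to 11.7% at day 5. The ranges of this share at both days lay below that of controls. The mean TPM of Adam17 itself was 51.0 in controls, 48.0 at day 1 and 54.9 at day 5. A share also falls when other members rise, so the lower day 5 share is not a lower level of Adam17. The control and day 5 ranges of Adam15 and of Adam12 overlapped.

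The remaining ADAM genes of the mouse were hardly present. Of 24 listed genes, many of them expressed in testis, 2 passed the filter, Adam1a and Adam32, and 12 of the other 22 were listed at 0 in all 13 libraries. Adam1a went from 2.27 TPM in controls to 1.30 at day 5 (log2 -0.63, limma, adjusted p = 0.064), with ranges that did not overlap. It passed in only 1 of 13 fits without 1 library, the one without day 5 replicate 4 (limma, adjusted p = 0.0462). Of 10 other settings it passed in 2, quantile normalization (0.0284) and eBayes without the trend (0.0243). The adjusted p in those 10 went up to 0.198. Adam32 had a day 5 value of -0.18 (limma, adjusted p = 0.874).

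Partners that govern ADAM activity were read from lists of genes, whose counts at day 5 stand beside the 6.12% of all tested genes that passed. TspanC8 tetraspanins escort ADAM10 to the cell surface and steer its choice of substrate. Of the 5 tested, 1 passed at day 5, and it was lower: Tspan15, from 156 ± 17.3 to 112 ± 13.9 TPM (log2 -0.44, SE 0.11, limma, adjusted p = 0.0371), with day 5 libraries of 95.9 to 128 below the control range of 139 to 176. Adam10 itself rose in the same libraries. The other 4, Tspan5, Tspan14, Tspan17 and Tspan33, lay between -0.06 and 0.08. The Tspan15 difference passed in 7 of 13 fits without 1 library, and its adjusted p reached 0.12 without day 5 replicate 1. It failed in 3 of 11 other settings, among them no filter on low TPM (0.0703) and eBayes without the trend (0.0592). The iRhom partners of ADAM17, Rhbdf1, Rhbdf2 and Frmd8, had day 5 values of 0.04, 0.02 and 0.17, and 0 of 3 passed at either day in limma (1 at day 5 and 0 at day 1 at an unadjusted p under 0.05).

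Among inhibitors, Timp3, which blocks ADAM17 and ADAM10, was the most abundant at 1380 TPM in controls and did not pass at day 5 (log2 0.16, adjusted p = 0.608 in limma). Timp1, an inhibitor of ADAM10, was low, and passed narrowly: 0.936 to 2.29 TPM in controls and 2.28 to 5.74 at day 5 (log2 0.99, SE 0.27; limma, adjusted p = 0.0475). It passed in only 3 of 13 fits without 1 library, where the adjusted p went up to 0.146, without day 5 replicate 1, and in 3 of 10 other settings. Timp2 had a day 5 value of 0.19 (adjusted p = 0.0875 in limma) and 1 of the 4 inhibitors tested passed in all. Of the proprotein convertases, which remove the ADAM prodomain, 1 of 4 passed: Pcsk5 rose from 22.7 ± 1.83 to 28.7 ± 3.83 TPM (log2 0.36, SE 0.08; limma, adjusted p = 0.0189). It failed in 2 of the 13 fits without 1 library, without day 5 replicate 2 (adjusted p = 0.0689) or 3 (0.0574), and in 3 of 11 other settings, among them unscaled TPM (0.0542) and the fit without control replicates 2 and 5 (0.109). Furin had 0.14 and Pcsk6 0.39 (limma, adjusted p = 0.447 and 0.0881).

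**Figure D3:**
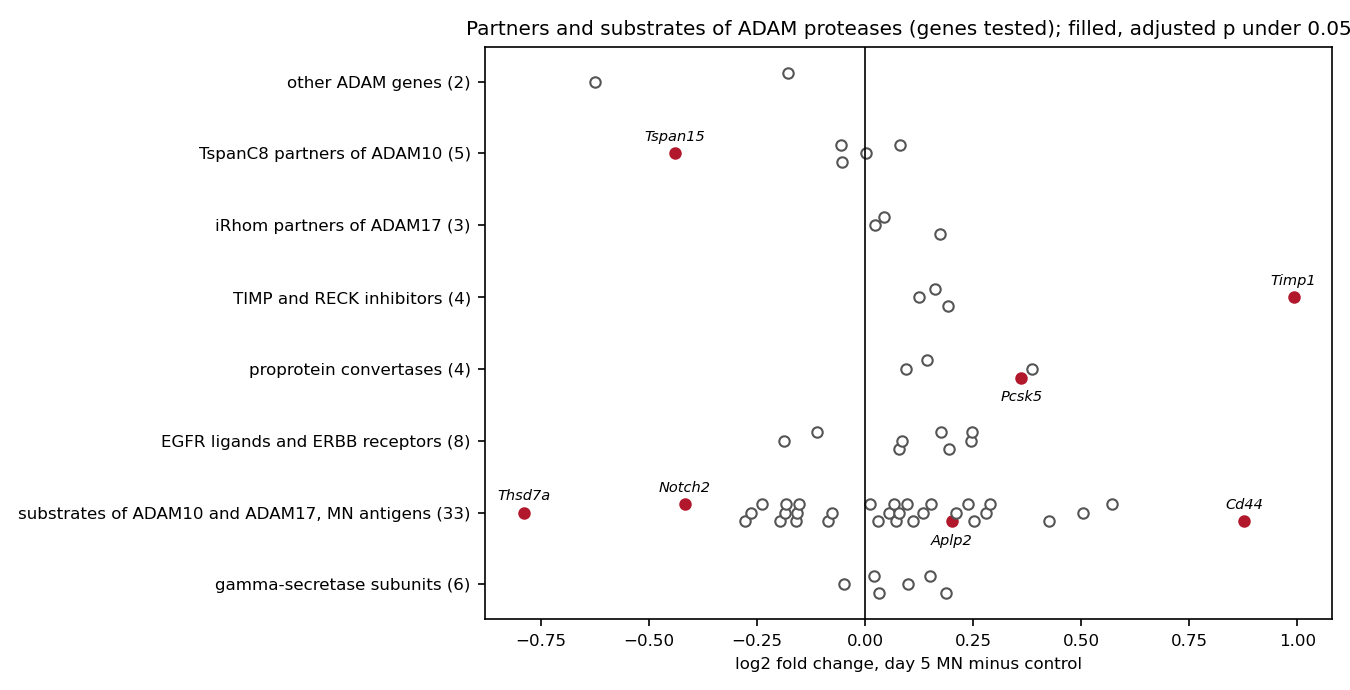
Log2 fold change at day 5 against control for every tested gene of the lists of ADAM partners, inhibitors and substrates (points, with the number tested in parentheses); filled points passed an adjusted p of 0.05 in limma. Filled points are 4 that rose (Timp1, Pcsk5, Cd44 and Aplp2) and 3 that fell (Tspan15, Notch2 and Thsd7a).

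The list of 33 tested genes for membrane proteins cut by ADAM10 or ADAM17 includes the MN antigens Pla2r1 and Thsd7a. The study cites work in which ADAM10 cut the proteins of both. At day 5, 2 genes of the list rose, 2 fell and 29 did not pass. Of all tested genes, 6.12% passed in either direction and 4.13% as higher. Cd44, the hyaluronan receptor, rose from 3.17 ± 0.571 to 6.19 ± 1.77 TPM (log2 0.88, SE 0.19; limma, adjusted p = 0.0135). Aplp2, a relative of the amyloid precursor protein, rose from 597 ± 21.9 to 670 ± 23.3 TPM (log2 0.20; limma, adjusted p = 0.0296), and passed in 8 of 13 fits without 1 library, with an adjusted p of up to 0.11 without day 5 replicate 2. It failed in 5 of 11 other settings, among them quantile normalization, which lowered its log2 fold change to 0.12 (adjusted p = 0.0674). Notch2 fell from 15.8 ± 1.16 to 11.5 ± 1.73 TPM (log2 -0.42; limma, adjusted p = 0.0145), and passed in 11 of 13 (0.0547 without day 5 replicate 2). Thsd7a, the antigen of the injected antibody, fell from 174 ± 34.6 TPM in controls to 97.2 ± 15.5 at day 5 (log2 -0.79; limma, adjusted p = 0.0112), with 124 ± 21.1 at day 1 (adjusted p = 0.331). Cd44 and Thsd7a passed in all 13 fits without 1 library. Thsd7a also passed in all 11 other settings and Cd44 in 10 of 11, failing without control replicates 2 and 5 (adjusted p = 0.0552). The median over the list was 0.07 at day 5. None of these 7 partner and substrate genes passed between day 5 and day 1, and at day 1 against control 0 of 65 tested genes of all lists passed in limma (11 at an unadjusted p under 0.05).

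The EGF receptor ligands and ERBB receptors, the pathway most closely tied to ADAM17 and ADAM12, had 0 of 8 tested genes past the limma test at day 5 (1 at an unadjusted p under 0.05). That gene was Erbb2, which was lower at day 5 (log2 -0.19, limma, adjusted p = 0.122). Hbegf had the largest value (log2 0.25, adjusted p = 0.488), followed by Egfr (0.24, adjusted p = 0.655), and the list median was 0.13. The gamma-secretase subunits, which cut the membrane stubs left after shedding, had 0 of 6 genes past the limma test at day 5 (1 at an unadjusted p under 0.05) and a median of 0.07. Aph1a (0.19) and Psen2 (0.15) had the largest values.

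**Figure D4:**
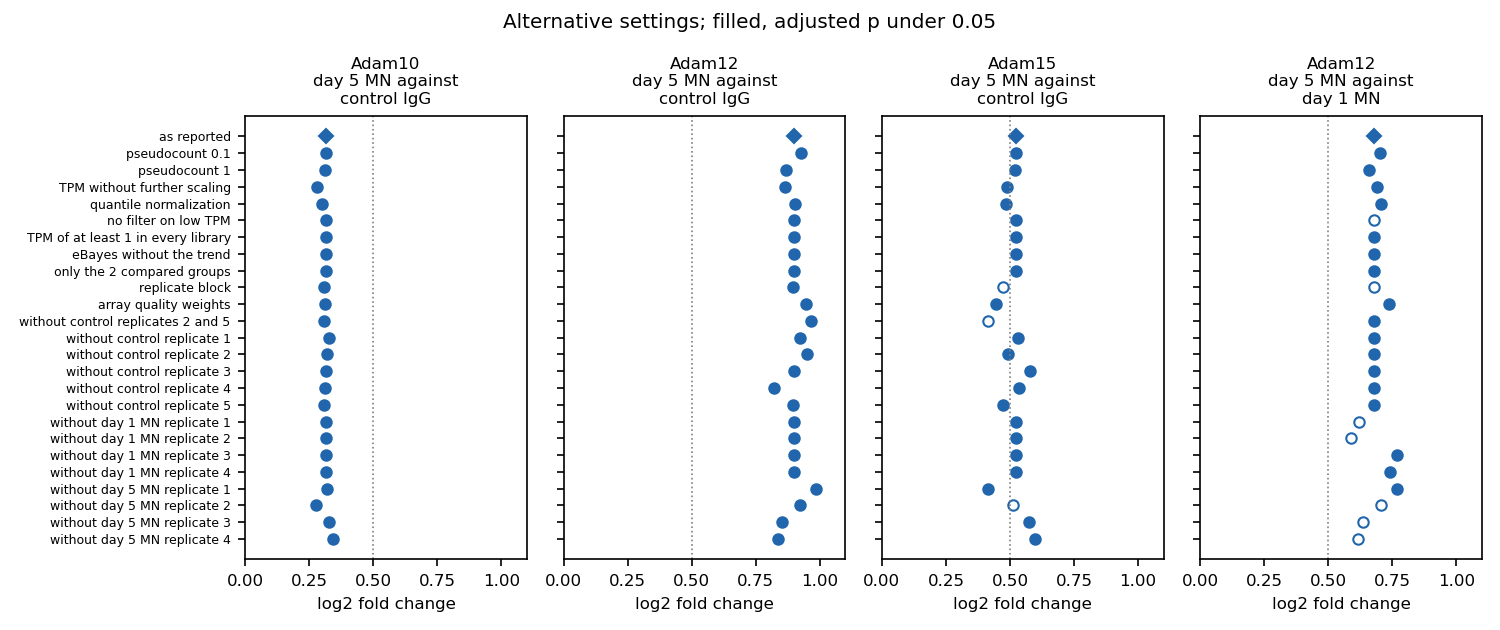
Log2 fold change of Adam10, Adam12 and Adam15 at day 5 against control, and of Adam12 at day 5 against day 1, as reported (diamond) and under each alternative setting or without each library (circles); filled symbols passed an adjusted p of 0.05 in limma and the dotted line marks 0.5. Adam10 spans 0.28 to 0.34 and Adam12 spans 0.82 to 0.99 against control with all symbols filled, while Adam15 spans 0.41 to 0.60 on both sides of the line.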

How the data were processed

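Glomerular RNA of 13 mice was sequenced. The authors trimmed reads with Trimmomatic 0.39 after FastQC 0.11.9, quantified transcripts with kallisto 0.46.2 against GRCm39 (Ensembl 104), and deposited TPM with 1 value per gene symbol. The authors' own test ran DESeq2 on counts, which were not used here. The deposited TPM were scaled by median-of-ratios factors from 15772 genes and put on a log2 scale after adding 0.5. Genes that reached a TPM of 1 in 4 or more libraries were fitted in limma 3.58.1 (R 4.3.3), with 3 groups in 1 fit and a trend of the variance, and p-values were adjusted by Benjamini-Hochberg per comparison. Calls needed an adjusted p under 0.05 and a log2 fold change beyond 0.5 in size. Means ± SD are of the deposited TPM. No member was under the filter, so the exact permutation test planned for such genes was not needed. The fit was tested on simulated data. From each list the text names genes that passed and the 2 with the largest day 5 change, and further genes of a list chosen after their values were seen. Members and lists were chosen with earlier results of these data known. Coding stretches were read from the GENCODE M39 annotation of GRCm39 (biopython 1.88, BLOSUM62 alignment), a later release than the authors' Ensembl annotation. The alternatives included other scalings, filters and pseudocounts, array weights, a replicate block and each library left out. Figures used matplotlib 3.10.9.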

Additional observations from a re-analysis of the deposited data

Results flagged for a closer look

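Among the 30 combinations of an ADAM gene and a group, 1 library stood far from the others of its group, where chance alone flags about 1 in 20 groups. Control replicate 2 had an Adam22 TPM of 22.9, and the next highest control library had 15.1, so the gap made up 0.866 of the group's range (critical value 0.71 for 5 libraries). The same library had the lowest podocyte marker sum; the part of that in the Adam22 value was not tested. Without it, the Adam22 log2 fold change at day 1 went from -0.07 to 0.05.

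For 2 genes the difference from control was larger at day 5 than at day 1 by the test of day 5 against day 1, Adam10 (difference 0.27 on the log2 scale) and Adam12 (0.68). Both comparisons use the same control libraries, which drop out of this difference. The control libraries still enter the scaling and the estimate of the spread in this test.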

How the results depend on the processing

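At day 1 the count of called ADAM genes was 0 under every alternative run. At day 5 against control it was 2 (Adam12 and Adam15), 3 with the adjusted p alone, and 1 (Adam12) with unscaled TPM, quantile normalization, array weights, without control replicates 2 and 5 (chosen after seeing the data), or with the replicate block. It was 1 to 2 without single libraries. At day 5 against day 1 it was 1 (Adam12), 2 with the adjusted p alone, quantile normalization (Adam12 and Adam23) or without control replicates 2 and 5, 0 without a filter on low TPM and 0 with the replicate block, and 0 to 2 without single libraries. The block put Adam15 at day 5 at 0.47 (adjusted p = 0.0814) and Adam12 between the days at 0.68 (limma, adjusted p = 0.0595), and at day 5 it raised the adjusted p of Tspan15 (0.0905), Pcsk5 (0.0867), Aplp2 (0.0802) and Timp1 (0.153) above 0.05. Same-numbered animals did not deviate together (r of -0.06 to 0.09 over 12 pairs, against -0.14 to 0.15 for other pairs). The labels do not say whether the numbers pair animals, and low correlations over 12 pairs cannot settle it. Values near 0 that changed sign, none of them past the test: with the replicate block Adam8 at day 1 was 0.037 and Rhbdf1 at day 5 was -0.0148, with array weights Adam8 between the days was 0.0295, Adam9 at day 1 was -0.0406 with unscaled and -0.000208 with quantile-normalized TPM, and without control replicates 2 and 5, Adam11 was -0.0296 at day 1 and -0.0109 at day 5, and Adam17 was 0.000874 and Adam22 0.0771 at day 1. Leaving out single libraries gave, at day 1, Adam8 -0.32 to 0.23, Adam9 -0.0601 to 0.072, Adam11 -0.0576 to 0.19, Adam17 -0.0835 to 0.00063, Adam19 -0.0611 to 0.26 and Adam22 -0.23 to 0.20. At day 5 it gave Adam8 -0.40 to 0.092, Adam11 -0.0507 to 0.25, Adam19 -0.004 to 0.31, Adam22 -0.0233 to 0.17, Adam32 -0.36 to 0.0948, Egfr -0.0039 to 0.47 and Rhbdf1 -0.0153 to 0.12. Between the days it gave Adam8 -0.34 to 0.21, Adam11 -0.11 to 0.19, Adam19 -0.10 to 0.22 and Adam22 -0.16 to 0.27. The causes were not tested. Depth is unknown, the control day is mixed, and 4 or 5 animals a group leave wide intervals for Adam8, Adam11, Adam19, Adam22 and Adam23.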
